A study of Mus musculus with 10 samples.

Results

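Sialic acid-binding immunoglobulin-like lectins (Siglecs) were followed across 10 RNA-seq libraries of mouse Ly6G+ cells. The members were picked by symbol, with no threshold on a measured value but with earlier results of these data known: Siglecf, Siglece, Siglec1, Siglecg, Siglech and Cd33, which are 6 of the 28185 genes measured. The cells came from male C57Bl/6J mice aged 12 to 16 weeks, all of which had their left coronary artery ligated and were sampled at day 3, so that no uninfarcted animals are among the controls. Ly6G+ cells were taken with magnetic beads from the digested left ventricle below the ligature (MI, 3 libraries) or from blood (Blood, 2 libraries), and likewise from mice that had been given syngeneic bone marrow mesenchymal stromal cells (MSC) under the skin within the first hour after ligation (MI + MSC, 3 libraries; Blood + MSC, 2 libraries). The MSC were placed far from the heart, and whether a heart and a blood library shared a mouse is not in the labels. Libraries are named by their group and the number in their label. The batch that the labels record is the same as the group, so batch and group cannot be told apart.

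Siglecs are cell surface receptors that bind sialic acids, the sugars that cap most glycans of mammalian cells. Most of them carry a tyrosine-based inhibitory motif in the cytoplasmic tail, which is phosphorylated by Src family kinases and then recruits the phosphatases SHP-1 and SHP-2, while others have a charged transmembrane residue and signal through the adaptor DAP12. Siglec-F is best known from eosinophils and alveolar macrophages and has also been used to mark a state of neutrophils in inflamed tissue, Siglec-E and CD33 are carried by neutrophils and monocytes, sialoadhesin (Siglec1) by macrophages, Siglec-G by B cells and Siglec-H by plasmacytoid dendritic cells.

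On the GRCm39 build, 5 of the members lie on chromosome 7. Siglecf (ENSMUSG00000039013, plus strand) spans positions 43000765 to 43008955, Siglecg (ENSMUSG00000030468, plus strand) 43057628 to 43067782, Cd33 (ENSMUSG00000004609, minus strand) 43173634 to 43193875 and Siglece (ENSMUSG00000030474, minus strand) 43298405 to 43309607. Siglech (ENSMUSG00000051504, plus strand) lies farther along the same chromosome, from 55417926 to 55429195, and Siglec1 (ENSMUSG00000027322, minus strand) lies on chromosome 2, from 130911140 to 130928685.

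Because neighbouring Siglec genes are related in sequence, their canonical GENCODE transcripts were compared before any level was read. The longest stretch shared by transcripts of Siglecf and Siglecg was 55 bases, with 25 shared runs of 31 bases, and the other 14 pairs of members shared at most 27 bases and 0 runs of 31. Siglece overlaps Ceacam18 on the opposite strand over 1639 exon bases, and Ceacam18 had 16 reads in all 10 libraries together, counted by strand. Siglecf was also the member for which the study designed an RT-qPCR assay, whose primers are shown because they give the part of the transcript that this assay reads. Capitals mark the primer and its binding site, read 5′ to 3′:
forward primer: GGGATACCCAATCCAGGGTCAT
reverse primer: GGAAGGAGAGGGAGGCATAGT
Siglecf amplicon: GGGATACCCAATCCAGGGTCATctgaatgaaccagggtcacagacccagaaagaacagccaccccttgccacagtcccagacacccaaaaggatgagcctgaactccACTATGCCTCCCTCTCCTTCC
The amplicon of 128 bases was read from the GENCODE transcript on the plus strand, between chromosome 7 positions 43005845 and 43008118. The forward primer spans the junction of exons 8 and 9 and the reverse primer lies in exon 9, the last of 9, both in coding sequence. Both primers matched 5 transcripts of Siglecf exactly, and 0 GENCODE transcripts of other genes, whereas the RNA-seq values described here count reads over all exons. By this assay, in an expanded cohort, the study reports Siglecf as significantly higher with MSC in Ly6G+ cells of the infarcted heart. Those measurements are not part of the values described here.

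The values are normalized counts, that is reads divided by the DESeq2 size factor of the library. Recovered reads per library ranged from 148594 in MI 13 and 268860 in Blood 21 to 8602711 in Blood + MSC 24, and a single read was worth 8.40 normalized counts in the former and 7.07 in the latter of the shallow pair, and 0.168 to 2.30 elsewhere. The transcript of the sorting antigen, Ly6g, was at 16.8 to 26.9 normalized counts in MI and 4.75 to 13.8 in MI + MSC. These heart values rested on 2 to 35 and 6 to 10 reads. In blood, Ly6g was at 197.8 and 644.5 in Blood and at 57.0 and 41.2 in Blood + MSC. It was thus lower in the libraries with MSC in both tissues, and lower in heart than in blood. The summed level of 11 neutrophil markers was 2496 to 13438 in heart and 16403 to 51265 in blood, that of 6 heart muscle markers was 3009 to 23360 in heart and 10.4 to 63.6 in blood, and 5 platelet markers stood at 23938 in Blood 21, the other libraries ranging from 437 to 1747. In these bulk samples, fewer cells of a type and less RNA per cell cannot be told apart. MI 13, Blood 21 and these marker levels are named beside some of the results that they touch. They bear on every comparison that uses these libraries.

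Cd33 was the most abundant of the 6 transcripts per kilobase of exon in 8 of 10 libraries, and Siglecf was first in MI + MSC 15 and MI + MSC 18. Cd33 made up 29.9% to 44.7% of the summed level per kilobase of the members in MI, 55.8% and 62.7% in Blood 21 and Blood 22, with 43.1% and 41.3% in Blood + MSC 23 and 24. Siglecf took the second place in MI 13, MI + MSC 17, Blood 21 and both Blood + MSC libraries, Siglec1 in MI 19, MI 20 and MI + MSC 18, and Siglece in Blood 22. Siglecg and Siglech were the lowest members per kilobase in each library and rested on few reads in heart, 2 to 19 for Siglecg and 1 to 12 for Siglech.

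**Figure D1:**
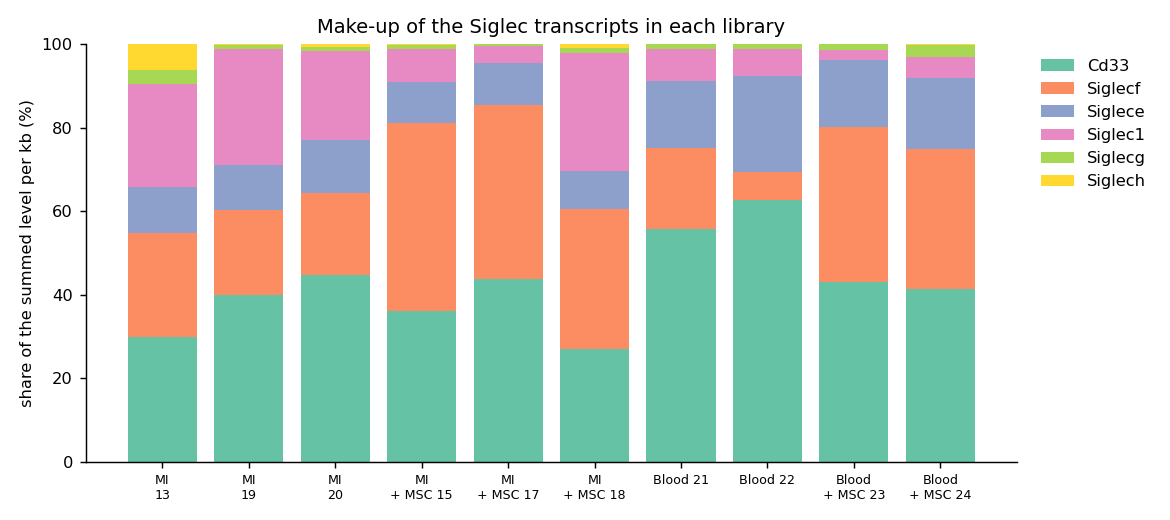
Share of each member in the summed level per kilobase of exon of the 6 Siglec transcripts, in percent, with a stacked bar for each of the 10 libraries. Cd33 is the largest part of both Blood bars, at 55.8% and 62.7%, and the Siglecf part is 45.1% in MI + MSC 15, 41.4% in MI + MSC 17 and 33.4% in MI + MSC 18.

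Siglecf was higher in each MI + MSC library than in any MI library, and higher in each Blood + MSC library than in any Blood library. In MI it was at 75.6, 101.9 and 109 normalized counts (libraries 13, 19 and 20), and in MI + MSC at 414, 500.5 and 138 (libraries 15, 17 and 18). These groups did not overlap, but MI + MSC 18 stood close to the MI libraries, and the 95% exact Poisson interval of MI 13, which rests on 9 reads, ran from 34.6 to 144 normalized counts and so reached above it. The other MI values rested on 106 and 212 reads and the MI + MSC values on 613, 218 and 203. In Blood, Siglecf was at 268 (38 reads) and 121 (186 reads) normalized counts in libraries 21 and 22, and in Blood + MSC at 623 (2371 reads) and 360.1 (2140 reads) in libraries 23 and 24. The 2 Blood libraries lay farther from each other than the higher of them lay from the lower Blood + MSC library.

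The group means of Siglecf were 95.5 ± 17.6 (SD, n = 3) in MI, 351 ± 189.6 (n = 3) in MI + MSC, 195 ± 104 (n = 2) in Blood and 491 ± 186 (n = 2) in Blood + MSC. The log2 fold change with MSC, on the scale of log2(normalized count + 2), was 1.68 ± 0.48 (SE) in heart and 1.38 ± 0.58 in blood. Neither passed the test: the limma adjusted p was 0.517 in heart (unadjusted p = 0.00453, limma) and 0.672 in blood (unadjusted p = 0.0360, limma). A call needed a Benjamini-Hochberg adjusted p under 0.05 and a log2 fold change of 0.5 or more in either direction, and limma called 0 of 11549 genes (0%) in heart, with 925 at an unadjusted p under 0.05, and 0 of 11549 (0%) in blood, with 848. edgeR called 0 genes in either tissue, DESeq2 called 21 higher and 58 lower in heart (in blood, 4 and 175), and limma-voom with library quality weights called 39 higher and 222 lower in heart and 0 in blood. On the recovered reads, DESeq2 called Siglecf higher in heart (log2 fold change 1.81, adjusted p = 0.0342) among 0.220% of the genes for which it gave an adjusted p, and voom did so too (1.73, adjusted p = 0.0273) among 0.338%. Over the other 9 settings that kept each library or left out the shallowest pair, the adjusted p for Siglecf in heart stayed above the threshold, up to 0.853 with TMM scaling. Leaving out a single library moved the heart value between 1.32 (without MI + MSC 17) and 2.25 (without MI + MSC 18), and the blood value between 0.81 (without Blood 22) and 1.95 (without Blood 21).

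Not overlapping is common among all genes in these small groups. Every MI + MSC library was above every MI library for 7.05% of the 11549 genes, and the libraries with MSC were above those without in both tissues for 1.45%. Among the 5 members tested, Siglecf met both conditions and the other 4 met neither. Blood and Blood + MSC did not overlap, in either direction, for 36.4% of the genes and for 4 of the 5 members, with Siglecf and Siglecg higher and Siglec1 and Cd33 lower in Blood + MSC. The test of the difference between the tissues gave a log2 value of 0.29 ± 0.75 for the change of Siglecf in heart over that in blood (limma adjusted p = 0.891), and 0% of the genes were called in that interaction, with 838 at an unadjusted p under 0.05 and 0 called by edgeR, 0 by voom and 20 by DESeq2.

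**Figure D2:**
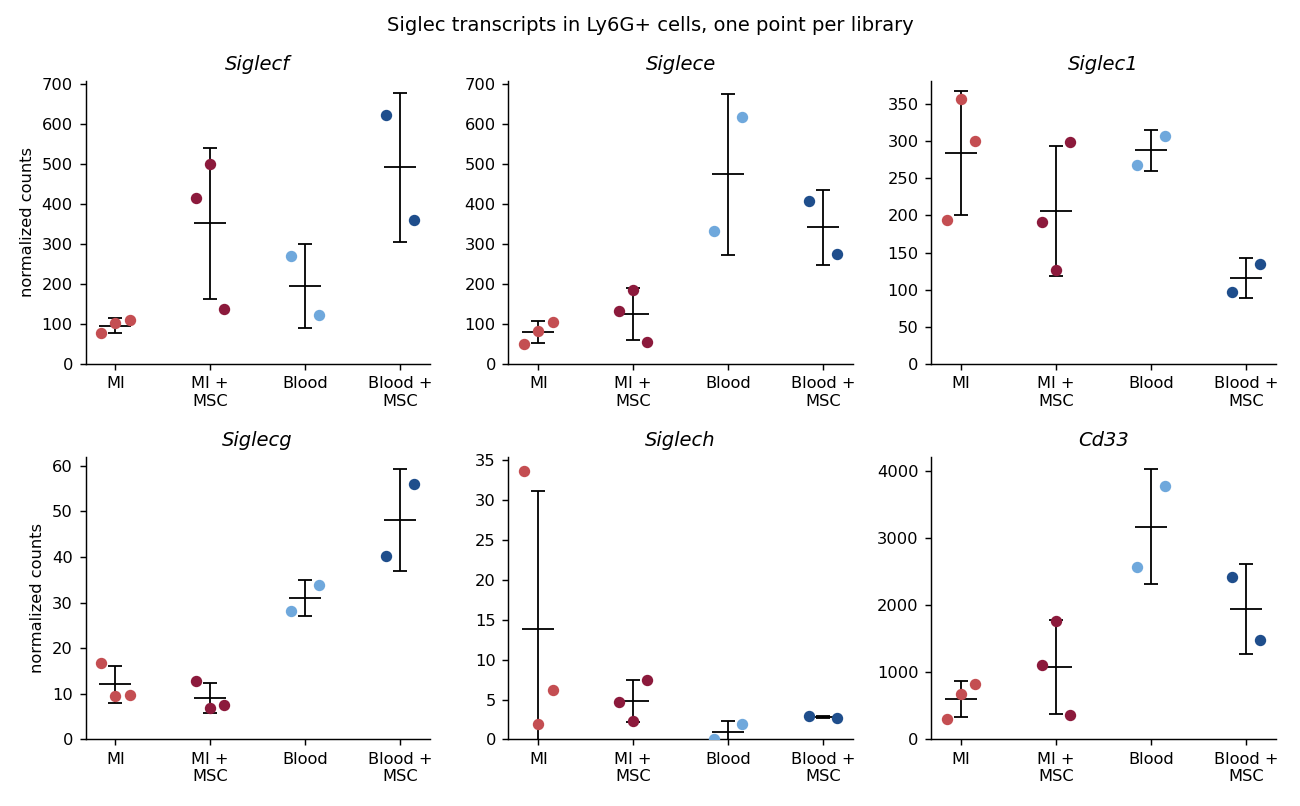
Normalized counts of the 6 Siglec transcripts, with a point for each library, a horizontal line at the group mean and bars of 1 SD. Siglecf lies at 75.6 to 109 in MI and 138 to 500.5 in MI + MSC, whereas Siglece, Siglecg and Cd33 lie lower in the MI libraries than in the Blood libraries.

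The levels of the cell types in which Siglecf is best known are given beside it. Of 9 eosinophil markers, 8 were measured. The granule genes Epx, eosinophil peroxidase, and Prg2, the major basic protein, each had 0 to 4 reads in every library. Alox15 and Il5ra, also of the list, reached 36.2 in Blood + MSC 24 (215 reads) and 42.0 in MI 13 (5 reads). The summed level of the eosinophil list lay at 47.9 to 101 in the MI libraries, 26.4 to 57.4 in those of MI + MSC, 21.2 to 79.3 in those of Blood and 56.7 to 109 in those of Blood + MSC. The 101 is that of MI 13, where a single read was worth 8.40, and MI 19 and MI 20 were at 71.1 and 47.9. In Blood 21, 7 of the 8 genes had 0 reads. Of the eosinophil list, 2 genes were tested, Ccr3 and Ear2, and with MSC in heart they differed in direction, with 0 called, as for 0% of all genes. Ccr3, the eotaxin receptor, was at 4.75 to 13.8 in MI + MSC against 0 to 4.81 in MI (log2 fold change 1.39 ± 0.58). Its highest values were in blood, at 21.2 to 31.2. Ear2 was at 8.79 to 25.8 in MI + MSC against 8.40 to 55.8 in MI (-0.68 ± 0.88), and at 0 to 33.1 in blood. Of 6 alveolar macrophage markers, 5 were measured, and their sum was 345 to 799 in MI and 164 to 533 in MI + MSC, most of it Chil3, with Car4 and Krt79 at 0 to 16.8 in every library. The neutrophil markers summed to 2496 to 7916 in MI and 2801 to 13438 in MI + MSC. In blood their sum was 44194 and 51265 without MSC and 23270 and 16403 with MSC. The 6 endothelial markers summed to 1896 to 2080 in MI and 435 to 863 in MI + MSC. For the 6 heart muscle markers the sums were 7841 to 23360 in MI and 3009 to 12172 in MI + MSC. The part of these cells in the Siglecf values was not tested.

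Ratios of transcripts within the same library do not depend on the size factor, and those of Siglecf were examined after its levels had been seen. The ratio of Siglecf to Siglece was 1.5, 1.23 and 1.04 in MI, against 3.13, 2.73 and 2.48 in MI + MSC. In Blood the same ratio was 0.809 and 0.196, against 1.53 and 1.31 in Blood + MSC. The groups with MSC lay above those without in both tissues, and MI + MSC 18 stood with its group here. Over the same denominators, on log2 values with the pseudocount, 0.407% of the 11549 genes separated in this way in both tissues relative to Siglece, 0.372% relative to Cd33 and 0.147% relative to Csf3r. The ratio to Cd33 gave the same order, with 0.250, 0.151 and 0.133 for MI, 0.376, 0.285 and 0.372 for MI + MSC, 0.105 and 0.0321 for Blood, and 0.258 and 0.245 for Blood + MSC. Csf3r, the receptor of granulocyte colony-stimulating factor and a neutrophil marker, served as a denominator outside the family: Siglecf was at 0.0898 to 0.136 of its level in MI and 0.182 to 0.198 in MI + MSC. The same ratio was 0.0471 and 0.0127 for Blood, and 0.0859 and 0.0625 for Blood + MSC. Siglecf thus separated over each denominator shown, and these were examined with its levels known. The shares of genes given above are therefore no test of Siglecf. Siglece and Cd33 also varied closely together, with a Pearson's r of 0.98. Over Siglecg, Siglecf separated in heart but overlapped in blood: Blood 21 was at 9.5, Blood 22 at 3.58, Blood + MSC 23 at 15.5 and Blood + MSC 24 at 6.43. Over Siglec1 it separated in both tissues.

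**Figure D3:**
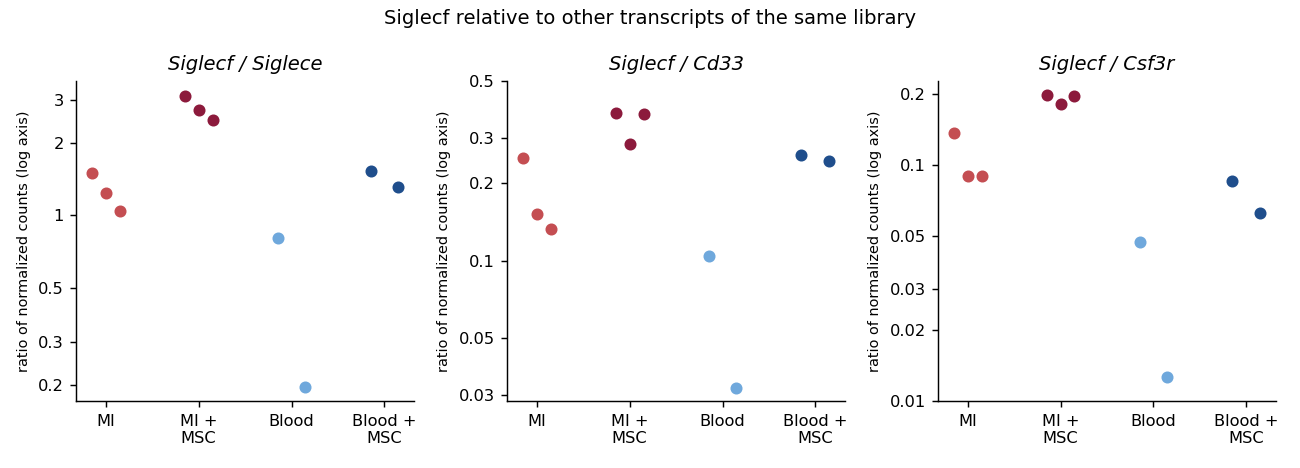
Ratio of the normalized counts of Siglecf to those of Siglece, Cd33 and Csf3r in the same library, on log axes, with a point for each library. In each panel the MI + MSC points lie above the MI points and the Blood + MSC points above the Blood points, as with Siglecf to Siglece at 1.04 to 1.5 in MI and 2.48 to 3.13 in MI + MSC.

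Relative to the 11 neutrophil markers taken singly, Siglecf was higher with MSC without overlap for 8 markers in heart and 7 in blood. For 6 markers (Ly6g, S100a8, S100a9, Retnlg, Mmp8 and Csf3r) this held in both tissues, while Mmp9 and Ngp overlapped in both. The markers moved too: in Blood + MSC against Blood, 1 of 11 was higher, with a median log2 fold change of -1.8 and 0 called. In MI + MSC against MI, 5 of 11 were higher, with a median of -0.006 and 0 called. Limma called 0% of all genes in both of these comparisons. A ratio also rises where its denominator falls, so these counts do not show a change of Siglecf apart from that of the markers. Separation from at least 6 of the 11 markers in both tissues was met by 0.268% of the 11549 genes. The count of markers in both tissues was 1 for Siglece, 2 for Cd33 and 0 for Siglec1 and Siglecg. In blood alone, Siglecg was higher with MSC for 7 markers, as many as Siglecf, Siglece and Cd33 for 5 each and Siglec1 for 1. Siglece and Cd33 were also lower for 2 markers each in blood, and Siglec1 for 3. In heart alone the counts of markers were 1 for Siglece, 2 for Cd33 and 0 for Siglec1 and Siglecg. These counts have no test, since they were chosen after the values were seen and the markers share their libraries.

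Siglece, an inhibitory receptor of neutrophils and monocytes, had lower normalized counts in heart than in blood. It was at 50.4, 82.7 and 105 normalized counts in the MI libraries, and at 332 and 617 in Blood, which did not overlap, as for 55.2% of the 11549 genes in either direction. The log2 fold change was -2.54 ± 0.50 (SE; limma adjusted p = 0.00352), and the call held in each of 10 fits that left out a library and in each of 11 other settings. Between the groups with MSC, Siglece was at 132, 184 and 55.6 in MI + MSC and 408 and 276 in Blood + MSC, again without overlap, and the log2 fold change of -1.58 ± 0.50 lay just past the threshold (limma adjusted p = 0.0555). Of the 11 other settings 7 called it, edgeR (adjusted p = 0.0159) and DESeq2 (adjusted p = 0.0138) among them. Of 10 fits that left out a library 4 called it, and without MI + MSC 18 the value was -1.09, with the highest limma adjusted p of these fits (0.377). Averaged over the groups with and without MSC, Siglece was lower in heart by a log2 value of -2.06 ± 0.35 (limma adjusted p = 0.000961). Neutrophil markers were lower too, with 9 of 11 called lower in MI against Blood and a median log2 fold change of -3.12. The ratio of Siglece to Csf3r was 0.0632 to 0.0909 in the heart libraries and 0.0479 to 0.0647 in the blood libraries, which overlapped. It was thus not lower in heart relative to this marker. With MSC, Siglece differed by 0.53 ± 0.44 in heart and -0.43 ± 0.54 in blood, with limma adjusted p of 0.717 and 0.895, and the sign in blood turned to 0.24 with TMM scaling.

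Cd33, a receptor of the myeloid lineage, gave the same order of tissues. Its level was 303, 673 and 822 normalized counts in the MI libraries, and Blood had 2565 and 3770.3, a log2 fold change of -2.49 ± 0.64 (limma adjusted p = 0.0132). The call was lost without Blood 22 (adjusted p = 0.0666) and held in the other 9 fits that left out a library. In MI + MSC the values were 1100.4, 1759 and 369, the middle of which lies within the range of 1472 to 2414 of Blood + MSC, and the log2 fold change of -1.07 ± 0.64 did not pass (limma adjusted p = 0.279). Averaged over MSC, Cd33 was lower in heart by -1.78 ± 0.45 (limma adjusted p = 0.00902). Its ratio to Csf3r was 0.525 to 0.676 in the 6 heart libraries and 0.256 to 0.450 in the 4 blood libraries. Csf3r itself was at 555 to 2753 normalized counts in heart and 5695 to 9547 in blood. A ratio to it is higher in heart for any gene that falls less, as was that of Siglecf. The share of all genes that separate in this way was not counted, so the ratio shows no trait of Cd33. With MSC, Cd33 differed by 0.70 ± 0.57 in heart and -0.72 ± 0.70 in blood (limma adjusted p = 0.714 and 0.852).

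Siglecg, an inhibitory receptor of B cells, stood at 16.8, 9.61 and 9.78 normalized counts without MSC (MI) and at 12.8, 6.89 and 7.46 with MSC (MI + MSC) in heart, each on 2 to 19 reads. It was at 28.3 (4 reads) and 33.8 (52 reads) in Blood and at 40.2 (153 reads) and 56.0 (333 reads) in Blood + MSC. All 6 heart libraries lay below all 4 blood libraries, as for 14.0% of the 11549 genes. Siglecg was lower in MI + MSC than in Blood + MSC by -2.20 ± 0.44 (limma adjusted p = 0.00814), a call that was lost without Blood + MSC 23 (adjusted p = 0.0805) or Blood + MSC 24 (adjusted p = 0.109). In MI against Blood the value of -1.26 ± 0.44 was called (limma adjusted p = 0.0446), but 8 of 10 fits that left out a library lost it, all but those without MI 13 (adjusted p = 0.0227) and without MI + MSC 17 (adjusted p = 0.0487), with up to 0.118 without Blood 22. The average over MSC was -1.73 ± 0.31 (limma adjusted p = 0.00130) and was called in each of those 10 fits. The 7 B cell markers summed to 133 to 199.7 in heart and to 247, 643, 256 and 794 in Blood 21, Blood 22, Blood + MSC 23 and Blood + MSC 24. Cd79a, a chain of the B cell receptor complex, was at 0 in Blood 21, at 77.3 in Blood 22, at 20.5 in Blood + MSC 23 and at 101 in Blood + MSC 24. Ebf1, of the same list, went the other way between tissues, at 25.7 to 92.4 in heart and 0 to 27.9 in blood. Blood + MSC 24 had both the highest Siglecg value and the highest sum of B cell markers. Blood 22 had a higher sum than Blood + MSC 23 (643 against 256) but less Siglecg (33.8 against 40.2). The part of B cells was not tested. With MSC, Siglecg differed by -0.35 ± 0.39 in heart and 0.59 ± 0.48 in blood (limma adjusted p = 0.779 and 0.813).

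Siglec1, or sialoadhesin, a macrophage receptor without an inhibitory motif, did not follow this order. The MI libraries held 193, 358 and 301.1 normalized counts and those of MI + MSC 190.6, 126 and 299.6. Blood had 268 and 307, and Blood + MSC had 96.9 and 134. MI and Blood overlapped, with a log2 fold change of -0.06 ± 0.39 (limma adjusted p = 0.913) whose sign turned under several settings. Both Blood + MSC libraries lay below both Blood libraries, where 36.4% of the 11549 genes did not overlap in either direction. The log2 fold change of -1.32 ± 0.43 did not pass (limma adjusted p = 0.672). Its size shrank to -0.65 with TMM scaling, which also moved the median of all genes in that comparison from 0.11 to 0.72. Relative to that median, the Siglec1 value was -1.43 with the deposited size factors and -1.38 with TMM. In heart, Siglec1 differed with MSC by -0.50 ± 0.35 (limma adjusted p = 0.679). The 12 macrophage markers summed to 2454 to 6706 in MI and 5097 to 10025 in MI + MSC, whereas Blood was at 6582 and 8161 and Blood + MSC at 5916 and 6860, and the part of macrophages in the Siglec1 values was not tested.

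Siglech, the DAP12-coupled receptor of plasmacytoid dendritic cells, had a mean under 10 normalized counts and was not tested. The MI libraries held 4, 2 and 12 of its reads, those of MI + MSC 7, 1 and 11, those of Blood 0 and 3, and those of Blood + MSC 11 and 16. The 4 reads of MI 13 correspond to 33.6 normalized counts, with a 95% exact Poisson interval from 9.16 to 86.1, and the other libraries lay at 0 to 7.46. The 0 reads of Blood 21 allow up to 21.2 normalized counts (3 reads), which is more than any other library but MI 13 held. Intervals and floors cover counting error only.

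Of the other mouse Siglecs, Cd22, an inhibitory B cell receptor, was tested, and it was at 12.5 to 33.2 normalized counts in heart and 7.07 to 35.7 in blood. The MI libraries held 16.8, 12.5 and 14.9 and those of MI + MSC 21.6, 20.7 and 33.2 (log2 fold change 0.68 ± 0.57, limma adjusted p = 0.720). Every MI + MSC library was above every MI library, as for 7.05% of the 11549 genes. MI and Blood overlapped, and the log2 fold change was -0.10 ± 0.64 (limma adjusted p = 0.914). Mag, known from myelin, had 0 to 20 reads and was not tested, and it lay at 6.18 to 8.65 in MI and 9.46 to 13.8 in MI + MSC. Siglec15 was not analysed here.

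In MI against Blood, 3 of the 5 members tested were called lower (Siglece, Cd33 and Siglecg) and 0 higher, where 13.5% of all genes tested were called lower. The median log2 fold change was -1.26 over the 5 members and 0.15 over all 11549 genes. In MI + MSC against Blood + MSC, 1 member (Siglecg) was called lower against 5.85% of all genes, with medians of -1.07 and 0.09. In the average over MSC, 3 members were called lower against 18.1% of all genes. The comparisons share libraries, and the neutrophil markers moved with them: 9 of 11 were called lower in MI, with a median log2 fold change of -3.12. Siglecf itself was lower in MI than in Blood by -0.92 ± 0.53, which did not pass (limma adjusted p = 0.195), and by -0.63 ± 0.53 in MI + MSC against Blood + MSC (limma adjusted p = 0.449). In Blood, Siglecf was at 268 and 121 normalized counts, above the 75.6 to 109 of MI. The groups did not overlap, as for 55.2% of all genes tested in either direction, and without MI 13 and Blood 21 the difference was -0.19.

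**Figure D4:**
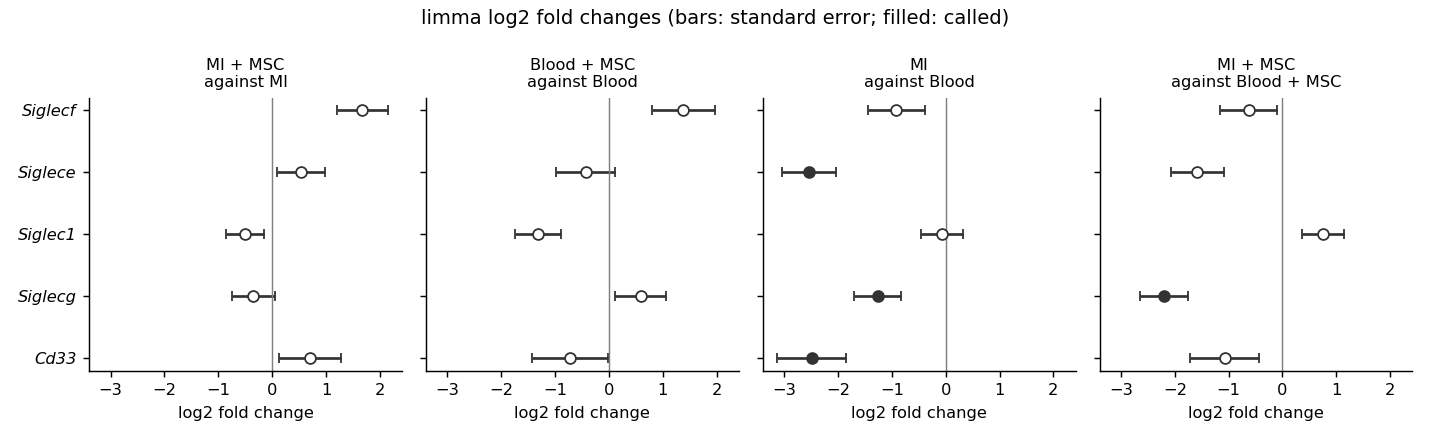
Log2 fold changes of the 5 tested Siglec transcripts from limma, with bars of 1 SE, in 4 comparisons. Filled points passed an adjusted p of 0.05 with an absolute value of at least 0.5: Siglece, Siglecg and Cd33 in MI against Blood and Siglecg in MI + MSC against Blood + MSC.

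The partners through which Siglecs signal were examined next. Of 12 signalling partners, all tested, 6 were called lower and 0 higher in MI against Blood, where 13.5% of all genes were called lower, with a median log2 fold change of -1.32. The neutrophil markers were lower in the same comparison (9 of 11 called, median -3.12) and the 6 heart muscle markers were all called higher (median 9.03), and their part in these values was not tested. Ptpn6, which encodes the phosphatase SHP-1, had 134.5, 189 and 168 normalized counts in MI libraries, against 480.4 and 1521 in Blood libraries (-2.38 ± 0.44, limma adjusted p = 0.00258), and Tyrobp, which encodes DAP12, had 143, 516 and 474.5 in the former and 1378 and 2841 in the latter (-2.59 ± 0.57, limma adjusted p = 0.00652). Neither gene overlapped between the groups, as for 55.2% of the 11549 genes in either direction. The related adaptor Hcst (-3.55), the Src family kinases Fgr (-1.98) and Lyn (-1.80) and the kinase Syk (-1.50) were the other calls, and of these 6 the calls of Ptpn6, Tyrobp and Fgr held in all of 21 other fits. Those of Hcst and Syk were lost without Blood 22. Ptpn11, which encodes SHP-2 and is used by the same motif, was at -0.01 ± 0.47 (limma adjusted p = 0.985). In MI + MSC against Blood + MSC, Ptpn6 (-2.61 ± 0.44) and Fgr (-1.67 ± 0.44) were called lower, against 5.85% of all genes, with limma adjusted p of 0.00340 and 0.0281; the call of Ptpn6 was lost without Blood + MSC 23, and that of Fgr without MI + MSC 15 or 18 or without Blood + MSC 23 or 24. With MSC, limma called 0 of the 12 partners in either tissue, where it called 0% of all genes, so this count does not set the partners apart. In heart 10 of the 12 were higher, with a median log2 fold change of 0.46 against -0.01 over all genes. In blood 5 of the 12 were higher, with medians of -0.03 and 0.11.

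Sialyltransferases build the ligands, and 12 of the 20 listed were tested. In MI against Blood, 3 were called higher and 4 lower, with a median of 0.17, against 21.2% of all genes called higher and 13.5% lower. The lower ones were St3gal4 (-1.81 ± 0.32), St3gal5 (-1.22 ± 0.33) and St3gal6 (-2.15 ± 0.46), which transfer sialic acid in an alpha 2-3 linkage, and St8sia4 (-1.86 ± 0.38), which makes polysialic acid. St3gal4 stood at 67.2, 50.9 and 64.3 normalized counts in the MI libraries and at 51.4, 66.6 and 40.0 in those of MI + MSC. Blood had 184 and 255 and Blood + MSC 352 and 232, so that all 6 heart libraries lay below all 4 blood libraries, as for 14.0% of all genes tested. The alpha 2-3 enzymes St3gal4 (-2.43 ± 0.32), St3gal6 (-1.90 ± 0.46) and St3gal5 (-1.37 ± 0.33) were also the ones called lower in MI + MSC against Blood + MSC. Of all genes tested, 5.85% were called lower in that comparison. There the call of St3gal4 held without any single library, while those of St3gal5 and St3gal6 were lost without MI + MSC 18, Blood + MSC 23 or Blood + MSC 24, and that of St3gal5 also without MI + MSC 15. The higher ones in MI were St8sia6 (3.17 ± 0.69), St3gal3 (2.64 ± 0.75) and St6galnac6 (1.30 ± 0.36). St3gal3 was at 25.2 to 50.4 normalized counts in the MI libraries and at 0 and 14.9 in Blood, and its call held in 14 of 21 other fits, being lost without Blood 21, without MI 13, without both, with edgeR, DESeq2 and voom, and with only the groups compared. That of St6galnac6 was lost without Blood 22, with TMM scaling and with only the groups compared. St3gal3 also makes an alpha 2-3 linkage, as do St3gal1 and St3gal2, which were at 0.14 ± 0.30 and 0.21 ± 0.33 and were not called. St6gal1, which adds alpha 2-6 linked sialic acid to N-glycans, was at -0.64 ± 0.65 and did not pass (limma adjusted p = 0.467).

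**Figure D5:**
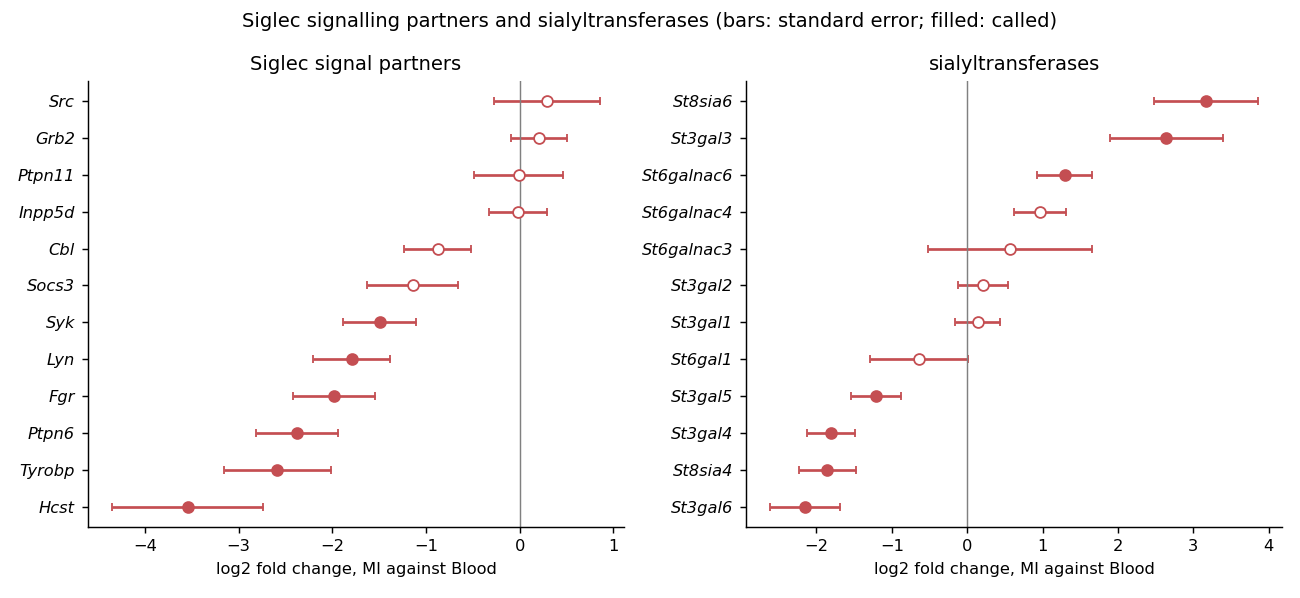
Log2 fold changes in MI against Blood, from limma with bars of 1 SE, of 12 signalling partners of Siglecs (left) and 12 sialyltransferases (right). Filled points were called: 6 partners lie to the left of 0, from -3.55 (Hcst) to -1.50 (Syk), and 4 sialyltransferases lie to the left and 3 to the right of 0.

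Among the other genes of sialic acid supply and ligands, Gne, the key enzyme of sialic acid synthesis, was at 67.2, 30.8 and 37.1 normalized counts in the MI libraries and at 0 and 16.2 in Blood, and was called higher (2.88 ± 0.77, limma adjusted p = 0.0153). Without Blood 21, the library at 0, the call was lost. Cmas, which activates sialic acid for transfer, was called lower (-1.06 ± 0.29, limma adjusted p = 0.0161), again not without Blood 21, and the call of the sialidase gene Neu1 (-1.54 ± 0.52, limma adjusted p = 0.0410) held only without MI 13, MI 19 or MI 20 among 10 fits that left out a library. Chst1, a sulfotransferase for galactose, whose product is known to be bound by Siglec-F, was at 50.4, 29.8 and 23.7 normalized counts in the MI libraries and at 7.44, 13.8 and 10.2 in those of MI + MSC. In Blood it was at 0 and 1.95, which is at most 3 reads, and in Blood + MSC at 1.58 and 1.68. It was called higher in MI than in Blood (3.64 ± 0.61, limma adjusted p = 0.00165) in each of 20 other fits, on a scale where the pseudocount sets the size of the change. Over the summed reads of each group, its share of reads was 21.07-fold that of Blood (95% exact interval 6.96 to 104, on 3 Blood reads). This ratio pools libraries and scales by total reads. Its interval covers counting error only, not the spread between libraries, so it is no interval for the difference of tissues. Of the 8 tested genes of its list, 4 were called lower, against 13.5% of all genes: Selplg (-2.62), which held in 21 other fits, and Cd24a (-2.27), Cd52 (-2.09) and Fut4 (-1.57). The calls of Cd24a and Cd52 were lost without Blood 21 or without Blood 22, and that of Fut4 held in 7 of 21 fits. The heart muscle and endothelial markers moved in the same direction as Chst1, Gne and St8sia6, and the neutrophil markers, at a median of -3.12, in the same direction as Selplg, Cd24a, Cd52 and Fut4; their part was not tested. With MSC, limma called 0 genes of these lists in either tissue, as it called 0% of all genes.

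Across the 10 libraries, the members did not all vary together. On log2(normalized count + 2), Pearson's r was 0.98 between Siglece and Cd33, 0.72 between Siglece and Siglecg and 0.57 between Siglecg and Cd33. Siglecf had 0.53 with Siglece, 0.57 with Cd33 and 0.30 with Siglecg. Siglec1 had a negative r with each, at -0.79 with Siglecf, -0.38 with Siglecg, -0.32 with Siglece and -0.28 with Cd33. The points are the same libraries, which differ in tissue and depth, so these values are descriptions over 10 libraries and carry no test. By the same measure, the genes most like Siglecf were Rnu12 (0.91), Gm56906 (0.90), Lyl1 (0.89), Aim2 (0.88) and Arhgap5 (0.88). Those most like Siglece were Ipcef1 (0.99), Gsr (0.99) and Ccpg1 (0.99), and those most like Cd33 were Mxd1 (0.99), 1600010M07Rik (0.99) and Cxcr2 (0.98), the last a neutrophil chemokine receptor. Siglec1 was most like Ifi211, Atxn1 and Vim (each 0.91), and Siglecg most like Rbis (0.97), Abca7 (0.96) and Cyth4 (0.96).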

How the data were processed

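RNA-seq of Ly6G+ cells gave 10 libraries (3 MI, 3 MI + MSC, 2 Blood, 2 Blood + MSC). Per the labels and methods, the authors used Trimmomatic, Picard, STAR on GRCm39, stranded featureCounts and DESeq2. The deposited signal values are gene counts that the authors divided by DESeq2 size factors. Both deposited tables held the same 281850 values. Steps between low values gave what a single read was worth in each library, and 100% of the values were then whole reads (tolerance 0.001 reads).

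The main test was limma-trend (limma 3.58.1) on log2(normalized count + 2), a model of 4 group means in which all 10 libraries shared the spread. It covered the 11549 genes whose mean reached 10 normalized counts. Alternatives were other pseudocounts, filters and scalings, edgeR (4.0.16), DESeq2 (1.42.0), voom, fits of only the groups compared, and leaving out libraries. Scripts were tested on simulated data. GENCODE M39 (GRCm39) paired 27906 of 28185 gene identifiers with symbols. Levels per kilobase used the union of exons. No protein sequence was used here. Some genes of the lists are not reported here.

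The members, the 18 gene lists and the tests were chosen with earlier results of these data known. Named genes were the members, called genes of the lists or those with the lowest p, and the 5 or 3 genes most like a member. Ptpn11, St6gal1, St3gal1, St3gal2, Mag and markers outside that rule were named after their values were seen. The study names single animals as its experimental unit, but the labels tie no library to a mouse, so p-values measure the spread between these libraries, which may be technical.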

Additional observations from a re-analysis of the deposited data

How the results depend on the processing

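No paired analysis was possible because the labels share no replicate numbers between groups. Counts of called genes, with limma unless another tool is named, moved by over 1.5 times as follows; the causes were not tested. MI + MSC against MI: 0 became 21 higher and 58 lower (DESeq2), and 39 and 222 (voom). Blood + MSC against Blood: 0 became 4 and 175 (DESeq2), 3 lower without the 2 shallowest libraries (MI 13 and Blood 21, chosen after seeing the data), and 0 to 1113 higher and 0 to 393 lower when a library was left out, the highest without Blood 22. MI against Blood, 2452 higher and 1556 lower: higher 1606 (filter at a mean of 20), 4014 (total reads), 1324 (TMM), 936 (voom) and 1091 (only the groups compared), lower 819 (total reads), 841 (TMM) and 609 (only the groups compared), and 1808 to 2759 and 1137 to 1616 with a library left out. MI + MSC against Blood + MSC, 951 and 676: higher 479 (TMM), 1892 (edgeR), 2057 (DESeq2), 2529 (voom), 2176 (only the groups compared) and 2577 (without the 2 shallowest), lower 1801, 1296, 2355, 1834 and 2187 for the last 5 of these, and 227 to 1500 and 39 to 1215 with a library left out, the lowest without Blood + MSC 23. Heart against blood averaged over MSC, 2918 and 2090: higher 5061 (filter at a mean of 1), 1930 (filter at 20) and 1428 (TMM), lower 1377 (total reads), and 1839 to 3251 and 1247 to 2432 with a library left out. Interaction: 0 became 20 (DESeq2), and 0 to 1095 with a library left out, the highest without Blood 22. A group left with 1 library is assumed to vary like the others.

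Members changed sign where no call stood: Siglecg with MSC in heart (0.049, voom); Siglece with MSC in blood (0.24, TMM; -0.88 to 0.014 with a library left out, the highest without Blood 22); Siglec1 in MI against Blood (0.46 total reads, 0.025 DESeq2, 0.078 voom, 0.094 without the 2 shallowest; -0.25 to 0.19 with a library left out) and in the average over MSC (-0.074, TMM); and the interaction of Siglecf (-0.13 total reads, -0.11 TMM, -0.43 without the 2 shallowest; -0.28 without Blood 21 to 0.86 without MI + MSC 18). TMM moved the median of all genes from -0.01 to 0.27 for MSC in heart and from 0.11 to 0.72 in blood; relative to it, Siglecf was 1.69 and 1.27 with the deposited factors and 1.67 and 1.33 with TMM. Total reads moved the median of MI against Blood from 0.15 to 0.68, and TMM to -0.12. With every library drawn down to 148594 reads, Siglecg had 0 to 5 reads and Siglech 0 to 4, so depth limits the lowest members.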
